A study of Caenorhabditis elegans with 16 samples.

Results

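The genes described here are 9 genes needed for molting in Caenorhabditis elegans, taken by their symbols from a table of read counts of 46904 genes: mlt-8, mlt-9, mlt-10, mlt-11, qua-1, noah-1, noah-2, nas-37 and bli-5. All 9 symbols were found, each in 1 row. They were followed in whole worms of 4 groups with 4 libraries each: cua-1(H828Q) mutants grown for 3 days on plates with 100 µM copper chloride, the same mutants without added copper, control worms with 100 µM copper chloride, and control worms without it. The mutated gene codes for the worm's ATPase that moves copper across membranes, and all 4 groups were synchronised worms fed Escherichia coli OP50 at 20 °C. The labels leave the strain of the controls unnamed, and the missense change cannot be read from counts at the 3′ ends of transcripts, so the genotype rests on the labels. They call the samples biological replicates without saying which came from separate cultures, and p-values therefore measure the spread between these samples.

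Nematodes replace their cuticle at the end of each larval stage: the epidermis detaches from the old cuticle, secretes a new one beneath it, and the worm sheds the old one. Transcripts of many molting genes rise and fall once in every larval stage in C. elegans, and the nuclear receptor NHR-23 is known to drive several of them. The members cover several roles. QUA-1 is a Hedgehog-related protein, the mlt genes were found through worms that stay trapped in the old cuticle when the gene is silenced, and MLT-10 is a secreted protein of the epidermis. NOAH-1 and NOAH-2 are zona pellucida proteins of the apical extracellular matrix, MLT-11 and BLI-5 carry domains of Kunitz-type protease inhibitors, and NAS-37 is an astacin metalloprotease that acts on the old cuticle during its shedding.

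Coordinates are those of WBcel235, the assembly also called ce11, and each gene is annotated as protein-coding. The gene mlt-8 (WBGene00021095) lies on chromosome II from 569210 to 572110 on the minus strand, and mlt-10 (WBGene00015646) lies on the plus strand of the same chromosome from 546705 to 552032, with 17177 bp between them. The third member of chromosome II is qua-1 (WBGene00004264), from 8198803 to 8204004 on the plus strand. Chromosome X holds mlt-9 (WBGene00008605), from 15101786 to 15107797 on the minus strand, and nas-37 (WBGene00003553), from 9944844 to 9949063 on the minus strand. The other members are mlt-11 (WBGene00012186) on chromosome V from 20667205 to 20678537 on the plus strand, noah-2 (WBGene00009926) on chromosome IV from 14091254 to 14096626 on the plus strand, bli-5 (WBGene00000255) on chromosome III from 13427640 to 13429768 on the minus strand, and noah-1 (WBGene00016422) on chromosome I from 5874416 to 5878958 on the minus strand.

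Total counts per library ran from 1891008 to 4001750, and levels are given as CPM, counts scaled to a common library size with TMM factors. A count of 3 corresponded to 0.661 to 1.69 CPM, depending on the library, so most members were counted near the limit of these data: over all 16 libraries they held from 10 counts (mlt-11) to 576 counts (nas-37). Reads may be copies of the same molecule, and counting intervals cover counting error only. In 5 libraries transcripts longer than 3000 bp were scarce against transcripts shorter than 800 bp. The difference in median log2 CPM was -2.28 in copper-treated mutant replicate 4, -0.87 in copper-treated control replicate 1, and -2.16, -0.96 and -0.64 in untreated control replicates 1, 3 and 4, while the remaining 11 libraries lay between 0.20 and 1.08. Results are given with and without these 5, which are called long-depleted here. Leaving them out leaves 1 untreated control library, which is then assumed to vary like the other groups.

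Of the 9 members, 5 passed the filter on low counts and entered the test over 9787 genes (mlt-8, mlt-9, mlt-10, qua-1 and nas-37). The other 4 (mlt-11, noah-1, noah-2 and bli-5) did not, and were compared with exact two-sided permutation tests. The tests were edgeR's quasi-likelihood tests, and "called" means a Benjamini-Hochberg adjusted p under 0.05 over all genes tested. A gene that passed the filter only through a group in which it is high had to differ between groups. The counts of called members and their median fold changes therefore describe these 5 and not the 9.

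Levels were lowest in the copper-treated control for 7 of the 9 members, with all libraries and also without the long-depleted ones. Among the 5 tested members this held for 4, against 19.6% of all tested genes (19.2% without the long-depleted libraries). The exceptions were nas-37, lowest in the untreated control, and mlt-11, lowest in the copper-treated mutant. RNA of whole worms was counted, so fewer cells that express a gene and less RNA per cell cannot be told apart.

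**Figure D1:**
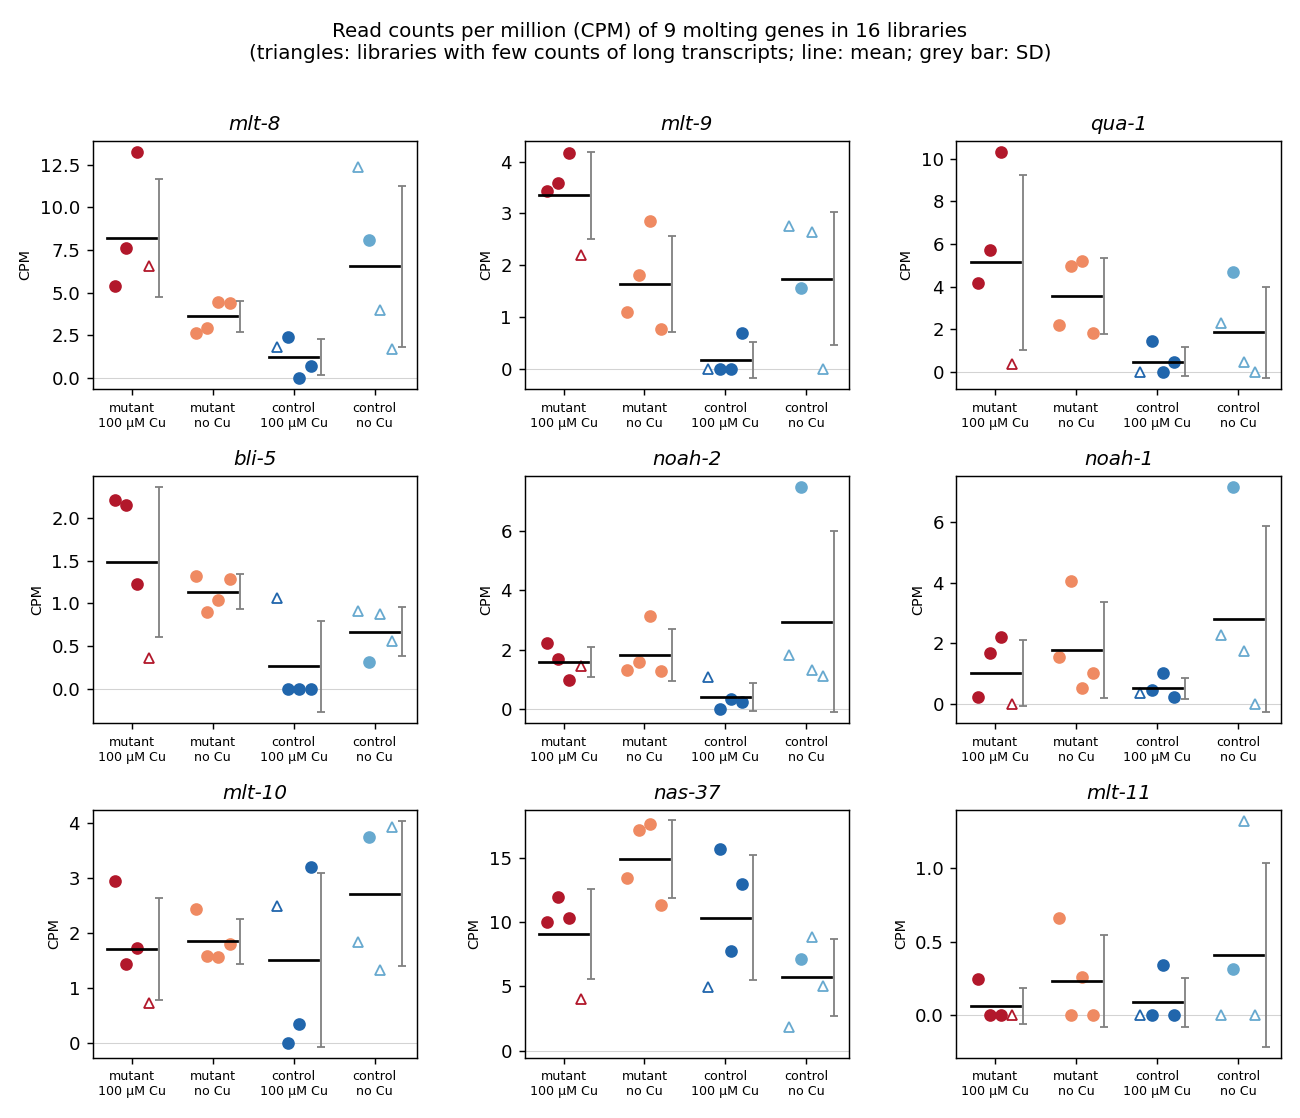
CPM of the 9 molting genes in each of 16 libraries, in the copper-treated mutant, the untreated mutant, the copper-treated control and the untreated control; points are libraries, open triangles the 5 long-depleted libraries, black lines the means and grey bars the SD of 4 libraries. The copper-treated control is lowest for mlt-8, mlt-9, qua-1, bli-5, noah-2, noah-1 and mlt-10, while nas-37 is highest in the untreated mutant.

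The clearest pattern was that of mlt-8, which is needed to complete the molt. It had 5.40, 7.65, 13.2 and 6.57 CPM in copper-treated mutant replicates 1 to 4, and 2.65, 2.94, 4.42 and 4.38 CPM in untreated mutant replicates 1 to 4. In the controls it had 1.78, 2.38, 0 and 0.684 CPM with copper, and 12.4, 8.10, 3.97 and 1.69 CPM without. All 8 mutant libraries were above all 4 copper-treated control libraries. The untreated control spread widely, with its highest library among the highest of all 16 and its lowest within the range of the copper-treated control. In order of the means, the copper-treated mutant (8.22 ± 3.48 CPM, SD, n = 4) and the untreated control (6.54 ± 4.72 CPM) overlapped, as did the untreated control and the untreated mutant (3.59 ± 0.94 CPM), while the untreated mutant and the copper-treated control (1.21 ± 1.07 CPM) did not.

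The same low level on copper-treated control plates was seen for mlt-9, another gene required for molting. It had 3.44, 3.59, 4.17 and 2.19 CPM in copper-treated mutant replicates 1 to 4, and 1.10, 1.81, 2.86 and 0.772 CPM in the untreated mutant. It was not counted in copper-treated control replicates 1, 2 and 3 and had 0.684 CPM in replicate 4, which is 3 counts, while the untreated control had 2.75, 1.56, 2.65 and 0 CPM. In CPM both mutant groups lay wholly above the copper-treated control, although untreated mutant replicate 4 also had 3 counts. Untreated control replicate 4 lay with the copper-treated control.

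The third gene of this pattern was qua-1, the Hedgehog-related gene. It had 4.17, 5.74, 10.3 and 0.365 CPM in copper-treated mutant replicates 1 to 4 and 2.21, 4.97, 5.20 and 1.80 CPM in the untreated mutant. The copper-treated control had 0, 1.43, 0 and 0.456 CPM, and the untreated control 2.30, 4.67, 0.441 and 0 CPM. The low value of the copper-treated mutant was its long-depleted library, which fell within the range of the copper-treated control, and the untreated control overlapped with every other group. The longest transcript of qua-1 has 3853 bp, and it is the only tested member over 3000 bp.

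The first comparison set the genotypes against each other with copper added. The genes mlt-8, mlt-9 and qua-1 were higher in the copper-treated mutant than in the copper-treated control, and mlt-10 and nas-37 were not called. Thus 3 of the 5 tested members were called, all higher, against 6.93% of the 9787 genes tested (6.39% higher and 0.542% lower). The gene mlt-8 differed by 2.85 ± 0.65 on the log2 scale (SE; adjusted p = 0.0108) and qua-1 by 3.55 ± 1.01 (adjusted p = 0.0418). Since mlt-9 had 52 counts in the copper-treated mutant and 3 in the copper-treated control, its difference is given as a ratio of CPM between the groups of 14.1 (exact 95% counting interval 4.56 to 70.5), and its adjusted p was 0.0111. The libraries of both groups did not overlap for mlt-8 and mlt-9, which was also so for 11.3% of all tested genes with higher values in the mutant.

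The median log2 fold change of the 5 was 2.85, against -0.04 over all genes tested. The filter can pass a gene through a group in which it is high, so this median describes the 5 alone. The values of mlt-10 (0.08 ± 0.67, adjusted p = 0.967) and nas-37 (-0.17 ± 0.42, adjusted p = 0.869) were within their errors of 0. Without the long-depleted libraries the differences were 3.28 for mlt-8 and 3.56 for qua-1, in a fit that called more of all genes. The call of mlt-9 held in all 23 alternatives that gave it a value. That of mlt-8 ended in 1 of 25, where copper-treated control replicate 4 was left out (adjusted p = 0.0519). The call of qua-1 ended in 13 of 24, where its adjusted p reached 0.142. These include the fits without any 1 of the untreated mutant libraries, without copper-treated mutant replicate 1, 2 or 3, and without copper-treated control replicate 1, 3 or 4.

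**Figure D2:**
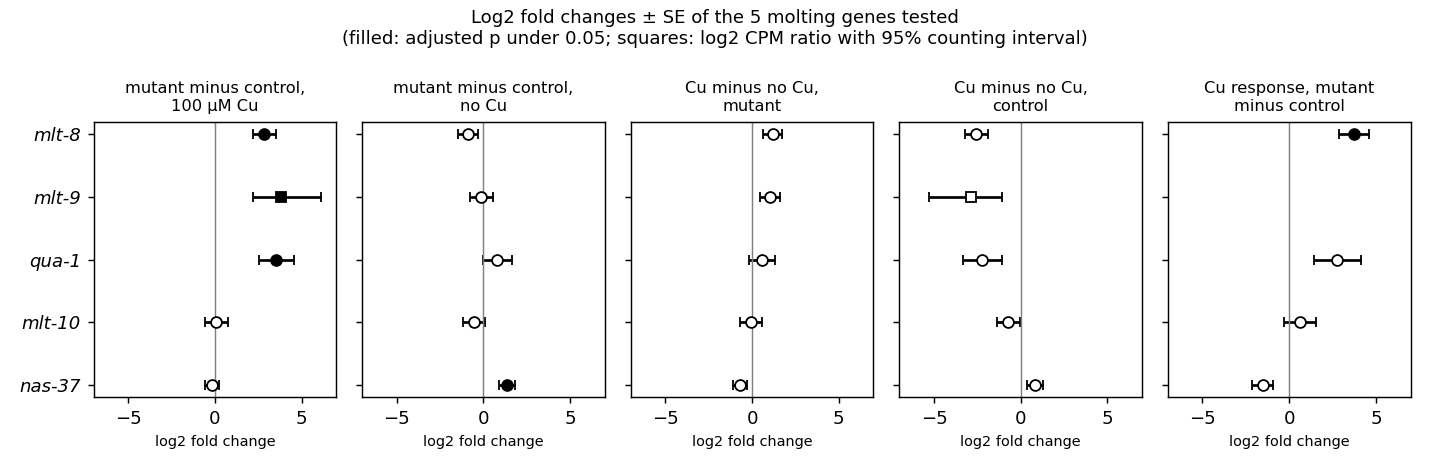
Log2 fold changes of the 5 tested molting genes in 5 comparisons, from left to right mutant minus control with 100 µM copper, mutant minus control without copper, copper minus no copper in the mutant and in the control, and the difference between the copper responses, mutant minus control; bars are the model's SE, filled symbols have an adjusted p under 0.05, and squares are log2 ratios of CPM with 95% counting intervals where a group held 3 counts or fewer (mlt-9, not drawn in the last panel). On copper, mlt-8, mlt-9 and qua-1 lie above 0, while nas-37 and mlt-10 lie near 0.

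Other measures moved with this comparison. Of the yolk genes, 6 of 6 tested were lower in the copper-treated mutant, where their summed level was 1801 to 7837 CPM, against 20970 to 22840 CPM in the copper-treated control. Of 11 sperm markers, 5 of 9 tested were higher, with sums of 418 to 839 CPM in the copper-treated mutant and 155 to 206 CPM in the copper-treated control. Of 7 epidermal markers 5 were tested, and edgeR called none of these 5 with all libraries, and ifb-1 higher without the long-depleted ones (0.37, adjusted p = 0.0324). The 7 summed to 108 to 272 CPM in the copper-treated mutant and to 141 to 220 CPM in the copper-treated control, with nhr-73 at 0 in all 16 libraries. Of 6 neuronal markers, egl-3 (1.05, adjusted p = 0.0148) and sbt-1 (1.23, 0.022) were higher, and the 6 summed to 385 to 532 CPM in the copper-treated mutant and 203 to 379 CPM in the copper-treated control. Of 6 intestinal markers, ifb-2 was higher (1.28, adjusted p = 0.00144) and cpr-6 lower (-1.37, 0.000645), and the 6 summed to 4090 to 8154 CPM in the copper-treated mutant and 3108 to 6115 CPM in the copper-treated control. Of the body wall muscle markers 5 were tested, and edgeR called 0 with all libraries. They summed to 4204 to 5783 CPM in the copper-treated mutant and 2557 to 3988 CPM in the copper-treated control. Without the long-depleted libraries their log2 differences were 0.56 to 0.80. With all libraries edgeR called 0 of 12 oocyte and eggshell markers and 0 of 2 tested adult cuticle collagens. The part of these markers and of stage in the difference of the molting genes was not tested.

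The response to copper was compared within each genotype. In the mutant, mlt-8 averaged 8.22 CPM with copper and 3.59 CPM without, and its 4 copper-treated libraries were all above its 4 untreated ones. The fitted log2 difference of mlt-8 was 1.2 ± 0.54 (edgeR adjusted p = 0.380). No overlap with higher values on copper was seen for 11.2% of all tested genes. Of the 5 tested members edgeR called 0, against 2.24% of all genes (1.78% higher and 0.46% lower). At an unadjusted p under 0.05 there was 1 (mlt-8), a cut for which no share of all genes is given. DESeq2 called 0 of the 5, and 432 of the 9787 genes. The remaining values were 1.04 ± 0.60 for mlt-9 (adjusted p = 0.512), 0.57 ± 0.73 for qua-1 (0.728), -0.08 for mlt-10 (0.963) and -0.70 ± 0.41 for nas-37 (0.518). Without the long-depleted libraries mlt-8 was called at 1.28, in a fit that called more of all genes.

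In control worms the fitted values of mlt-8, mlt-9, qua-1 and nas-37 had the opposite sign, while that of mlt-10 was negative in both genotypes. The difference between copper and no copper was -2.55 ± 0.67 for mlt-8 (edgeR adjusted p = 0.0606) and -2.20 ± 1.13 for qua-1 (adjusted p = 0.281). It was 0.83 ± 0.45 for nas-37 (edgeR adjusted p = 0.290) and -0.70 ± 0.67 for mlt-10 (0.506). For mlt-9, with 3 counts on copper and 17 without, the ratio was 0.136 (exact 95% counting interval 0.0255 to 0.470; edgeR adjusted p = 0.149). Of the 5 tested members edgeR called 0, against 1.78% of all genes tested (0.46% higher and 1.32% lower). At an unadjusted p under 0.05 there were 2 (mlt-8 and mlt-9), a cut for which no share of all genes is given. DESeq2 called 1 of the 5 (mlt-8, adjusted p = 0.00574), and 440 of the 9787 genes. Without the long-depleted libraries edgeR called mlt-8 at -3.23 and qua-1 at -3.09, in a fit that called more of all genes. There the untreated control is untreated control replicate 2 alone.

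Whether the copper responses differed between genotypes was tested as an interaction, as the response in the mutant minus the response in the control. It was called for mlt-8, at 3.74 ± 0.86 on the log2 scale (edgeR adjusted p = 0.0150). This is 1 of 5 tested members, against 5.38% of all genes tested (4.11% higher and 1.28% lower). The adjusted p was 0.0539 for mlt-9, whose fitted value rests on the 3 counts of the copper-treated control and is not given. The remaining interactions were 2.77 ± 1.35 for qua-1 (adjusted p = 0.182), 0.63 ± 0.92 for mlt-10 (0.646) and -1.53 ± 0.60 for nas-37 (0.132). The call of mlt-8 held in all 24 alternatives, with adjusted p from 0.00033 to 0.0483. This interaction and the 4 comparisons share libraries, so their values are not independent of each other.

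Across the 16 libraries, log2 CPM of mlt-8, mlt-9 and qua-1 varied together. Pearson's r was 0.78 between mlt-8 and mlt-9, 0.69 between mlt-8 and qua-1 and 0.73 between mlt-9 and qua-1, and 0.79, 0.94 and 0.87 in the 11 libraries that were not long-depleted. The r of nas-37 with the other 4 ran from -0.22 to 0.41. These values describe libraries that share groups and sequencing depth.

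The shedding protease gene nas-37 had another pattern. It had 10.1, 12.0, 10.3 and 4.02 CPM in copper-treated mutant replicates 1 to 4 and 13.5, 17.2, 17.7 and 11.3 CPM in the untreated mutant. The copper-treated control had 4.99, 15.7, 7.78 and 13.0 CPM, and the untreated control 1.84, 7.16, 8.82 and 5.06 CPM. The untreated mutant lay wholly above the untreated control and overlapped with the copper-treated control and the copper-treated mutant.

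The genotypes were also set against each other on plates without added copper. Here nas-37 averaged 14.9 ± 3.04 CPM in the untreated mutant and 5.72 ± 3.01 CPM in the untreated control (SD, n = 4 each), a log2 difference of 1.36 ± 0.44 (SE; edgeR adjusted p = 0.0383). It was the only call among the 5 tested members, against 21.9% of all genes tested (9.39% higher and 12.5% lower). The groups did not overlap, as for 16.4% of all tested genes with higher values in the mutant. The values of the other members were -0.89 ± 0.56 for mlt-8 (adjusted p = 0.228), -0.13 ± 0.67 for mlt-9 (0.892), -0.55 ± 0.64 for mlt-10 (0.522) and 0.78 ± 0.84 for qua-1 (0.481). The median of the 5 was -0.13, and that of all genes tested 0.0022.

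The call of nas-37 ended in 9 of 25 alternatives, among them the fits without untreated mutant replicate 1, 2, 3 or 4 and without untreated control replicate 1 or 4 (adjusted p of 0.0619 to 0.102). Its value was 1.004 without the long-depleted libraries (adjusted p = 0.0853), 0.67 with the balance of long and short transcripts as a covariate (0.296) and 0.91 with offsets for transcript length (0.0547). The untreated control holds 3 long-depleted libraries and the untreated mutant 0. Over the 16 libraries log2 CPM of nas-37 followed this balance, with r = 0.84 and Spearman's rho = 0.69 as a description. On the same scale r was -0.39 for mlt-8 and 0.32 for qua-1. The longest transcript of nas-37 has 2539 bp. Epidermal markers moved too: ifb-1 and ajm-1, 2 of the 5 tested, were higher in the untreated mutant, where 9.39% of all genes were called higher, and the 7 summed to 289 to 306 CPM there and to 73.4 to 166 CPM in the untreated control. Of 12 oocyte and eggshell markers 6 were lower (12.5% of all genes), with sums of 5983 to 6670 CPM in the untreated mutant and 8913 to 11940 CPM in the untreated control. The sperm markers gsp-3, gsp-4 and spe-11, 3 of 9 tested, were higher, with sums of 487 to 555 CPM in the untreated mutant and 124 to 426 CPM in the untreated control. Of the neuronal markers rab-3 was higher and snb-1 lower, and the muscle marker tnt-2 and the intestinal markers asp-1 and cpr-6 were lower. The part of the balance and of these markers in the difference was not tested.

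**Figure D3:**
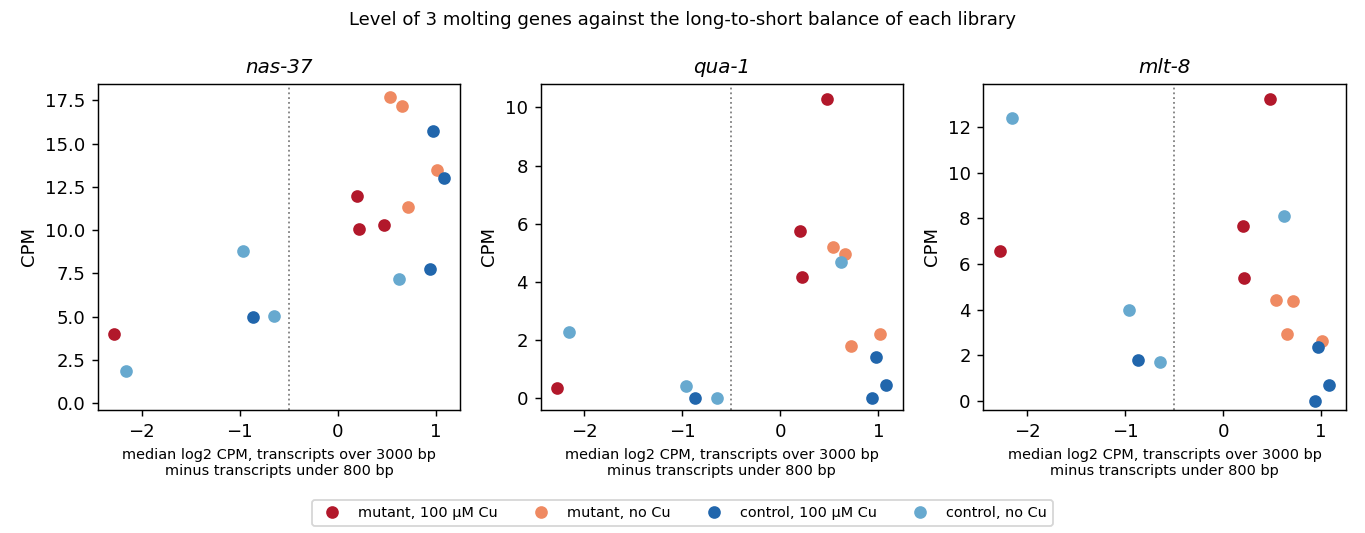
CPM of nas-37, qua-1 and mlt-8 in each library (vertical axis) against the balance of long and short transcripts, the median log2 CPM of genes over 3000 bp minus that of genes under 800 bp (horizontal axis); colours are the 4 groups and the dotted line at -0.5 bounds the 5 long-depleted libraries. The level of nas-37 is higher where the balance is higher (r = 0.84, computed on log2 CPM), which is not so for mlt-8 (r = -0.39 on log2 CPM).

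The 3′ end of nas-37 overlaps by 32 bp with C17G1.5 on the opposite strand, and the counting of strand is not given in the sources used here. C17G1.5 held 156 counts and averaged 3.92 CPM in the untreated mutant and 2.41 CPM in the untreated control, a log2 difference of 0.68 ± 0.51 (edgeR adjusted p = 0.309).

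The secreted protein gene mlt-10 was near the counting limit in every group. It had 2.95, 1.43, 1.72 and 0.730 CPM in copper-treated mutant replicates 1 to 4 and 2.43, 1.58, 1.56 and 1.80 CPM in the untreated mutant. In the controls it had 2.49, 0, 0.338 and 3.19 CPM with copper and 1.84, 3.74, 1.32 and 3.93 CPM without. All 4 groups overlapped, and mlt-10 was called in none of the 5 comparisons. Its log2 difference for copper in the control was -0.70 (edgeR adjusted p = 0.506). The log2 CPM of mlt-8 and mlt-10 had r = 0.19 over the 16 libraries and 0.39 in the 11 that were not long-depleted. In the same order, r of mlt-10 was 0.19 and 0.60 with mlt-9, and 0.13 and 0.37 with qua-1. The 3′ end of mlt-10 overlaps by 179 bp with lips-7 on the same strand, a gene with 18 counts over all libraries.

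The matrix genes noah-1 and noah-2 were too low for the count test. For noah-2 there were 9, 7, 4 and 4 counts in copper-treated mutant replicates 1 to 4, and 6, 7, 12 and 5 counts in the untreated mutant. There were 3, 0, 1 and 1 counts in the copper-treated control and 4, 24, 3 and 2 in the untreated control. In CPM the copper-treated control lay wholly below the untreated control, as for 2.32% of all tested genes, which do not include noah-2. It lay below the copper-treated mutant but for copper-treated control replicate 1. The separation from the untreated control, and with it the permutation p below, rests on scaling. Untreated control replicate 4 had 2 counts (1.12 CPM) and copper-treated control replicate 1 had 3 (1.07 CPM), both long-depleted. The mean log2(CPM + 1) of noah-2 was lower by 1.28 in the copper-treated control than in the untreated control. The exact permutation p was 0.0286, the smallest that 4 against 4 allows, and the p adjusted over the 16 tests of this kind was 0.229. Between the copper-treated mutant and the copper-treated control noah-2 differed by 0.91 (exact permutation p = 0.0571, adjusted p = 0.229).

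The counts of noah-1 were more scattered. It had 1, 7, 9 and 0 counts in the copper-treated mutant, and 7, 18, 2 and 4 counts in the untreated mutant. It had 1, 1, 3 and 1 counts in the copper-treated control and 5, 23, 4 and 0 in the untreated control. Untreated control replicate 2 had the highest count of noah-1 and of noah-2, and it is the only library of its group that is not long-depleted. The difference for copper in the control was -0.98 on the log2(CPM + 1) scale (exact permutation p = 0.171), and no comparison of noah-1 had a smaller p.

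Of the inhibitor genes, bli-5 had 9, 9, 5 and 1 counts in copper-treated mutant replicates 1 to 4 and 6, 4, 4 and 5 in the untreated mutant. The copper-treated control had 3 counts in replicate 1 and 0 in the others, and the untreated control had 2, 1, 2 and 1. The ratio of the copper-treated mutant to the copper-treated control was 6.5 (exact 95% counting interval 1.97 to 33.7), and the difference of 0.97 in mean log2(CPM + 1) had an exact permutation p of 0.0571 (adjusted p = 0.229). The copper-treated mutant and the copper-treated control each had a long-depleted library that lay within the other group's range. Between the untreated mutant and the untreated control the difference was 0.37 (exact permutation p = 0.0571, adjusted p = 0.229).

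The 3′ end of bli-5 overlaps with that of cope-1 on the opposite strand, a gene with 2740 counts. The level of cope-1 was 50.2 CPM in the copper-treated mutant and 52.7 CPM in the copper-treated control (log2 difference -0.07 ± 0.22, edgeR adjusted p = 0.896). On chromosome III, 9961 bp lie between bli-5 and cua-1. Reads of the other inhibitor gene, mlt-11, were almost absent: 1 count in the copper-treated mutant, 4 counts in the untreated mutant, 1 count in the copper-treated control and 4 counts in the untreated control. No difference in mlt-11 was detectable at this depth.

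A wider set of 57 genes was examined beside the members: timing factors, other proteases, apical matrix and attachment, sterol uptake and trafficking, cross-linking enzymes and furrow collagens. Of these, 27 passed the filter and 30 did not. On copper, edgeR called 1 of the 27 lower in the mutant and 0 higher, against 6.93% of all genes tested. At an unadjusted p under 0.05 in either direction there were 6, and no share of all genes is given for that cut. DESeq2 called 2 of the 27, and 899 of the 9787 genes. The gene that edgeR called was cpz-1, a cathepsin Z-like protease. It had 163 ± 15.8 CPM in the copper-treated mutant and 345 ± 87.3 CPM in the copper-treated control (log2 difference -1.09 ± 0.22, edgeR adjusted p = 0.00568). Without the long-depleted libraries edgeR called more of all genes on copper and for copper in either genotype. Further genes that it called then are given by their values alone. On copper these were the cross-linking peroxidase gene mlt-7 (0.92) and sym-1 (3.41), higher, and cpl-1, a cathepsin L gene (-0.86), and nhr-23 (-0.49), lower. The gene cpz-1 also fell on copper within the mutant, to 163 CPM against 334 ± 45.4 CPM in the untreated mutant (-1.04 ± 0.22, adjusted p = 0.0152), the 1 call of the 27 in that comparison with all libraries, against 2.24% of all genes. That call ended without untreated mutant replicate 2 and without copper-treated mutant replicate 1 or 3 (adjusted p up to 0.0605). Further genes called lower without the long-depleted libraries were cpl-1 (-0.79), lrp-1 (-1.73) and mup-4 (-0.63). In the control, edgeR called 0 of the 27 for copper, against 1.78% of all genes. At an unadjusted p under 0.05 there were 7, a cut for which no share of all genes is given. DESeq2 called 2 of the 27, and 440 of the 9787 genes. With the long-depleted libraries left out, which leaves 1 untreated control library, let-805 was called higher (1.52) and sym-1 lower (-4.79).

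The timing factor gene nhr-23 averaged 49.1 ± 7.2 CPM in the copper-treated mutant, 60.0 ± 13.2 CPM in the untreated mutant, 81.3 ± 20.2 CPM in the copper-treated control and 74.0 ± 19.4 CPM in the untreated control. Its difference between the genotypes on copper was -0.72 ± 0.25 (edgeR adjusted p = 0.111) with all libraries. It was called lower by DESeq2 (adjusted p = 0.0309), which called 899 of all genes, against 678 by edgeR. With length offsets edgeR called none of the 6 tested timing factors. Without the long-depleted libraries the value of nhr-23 was -0.49, in a fit that called more of all genes. With all libraries edgeR called none of the 6 tested timing factors in that comparison. The median log2 fold change of the 27 genes was -0.07, against 2.85 for the 5 tested members and -0.04 for all genes. The medians of the 27 and of the 5 cover only genes that passed the filter.

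Without copper, 4 of the 27 were higher in the mutant and 1 was lower, a share near that of all genes tested (21.9%). The higher ones were the attachment genes let-805 (myotactin; 2.03 ± 0.38, edgeR adjusted p = 0.00377), mup-4 (3.24 ± 0.64, 0.00487) and vab-10 (a spectraplakin; 1.99 ± 0.59, 0.0302), and lrp-1, the megalin receptor gene of sterol uptake (3.30 ± 0.78, 0.013). The lower one was cpl-1 (-1.23 ± 0.35, adjusted p = 0.0247). The call of vab-10 ended without any 1 of the untreated mutant libraries and without untreated control replicate 1, 3 or 4 (adjusted p up to 0.0838). That of cpl-1 ended without any 1 of the untreated mutant libraries and without untreated control replicate 1 or 3 (adjusted p up to 0.0957). With offsets for transcript length the values were -0.20 for let-805 (adjusted p = 0.754), -0.08 for vab-10 (0.804), 1.41 for lrp-1 (0.114) and 2.07 for mup-4 (0.00097). Without the long-depleted libraries they were 1.95 for let-805, 1.98 for mup-4 and 0.91 for vab-10, all called, while lrp-1 (2.04, adjusted p = 0.095) and cpl-1 (-0.21, 0.382) were not. The interaction was called for 3 of the 27 (5.38% of all genes), all negative: let-805 (-2.03), mup-4 (-2.95) and lrp-1 (-4.27). Of 24 alternatives, 19 ended the call of mup-4 and 9 that of let-805 or turned its sign, and 5 of 23 ended that of lrp-1. It was also called, with the long-depleted libraries left out, for sym-1 (4.40), vab-10 (-0.96), cpz-1 (-1.06) and cpl-1 (-0.65). That fit called the interaction for more of all genes than the fit with all libraries.

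**Figure D4:**
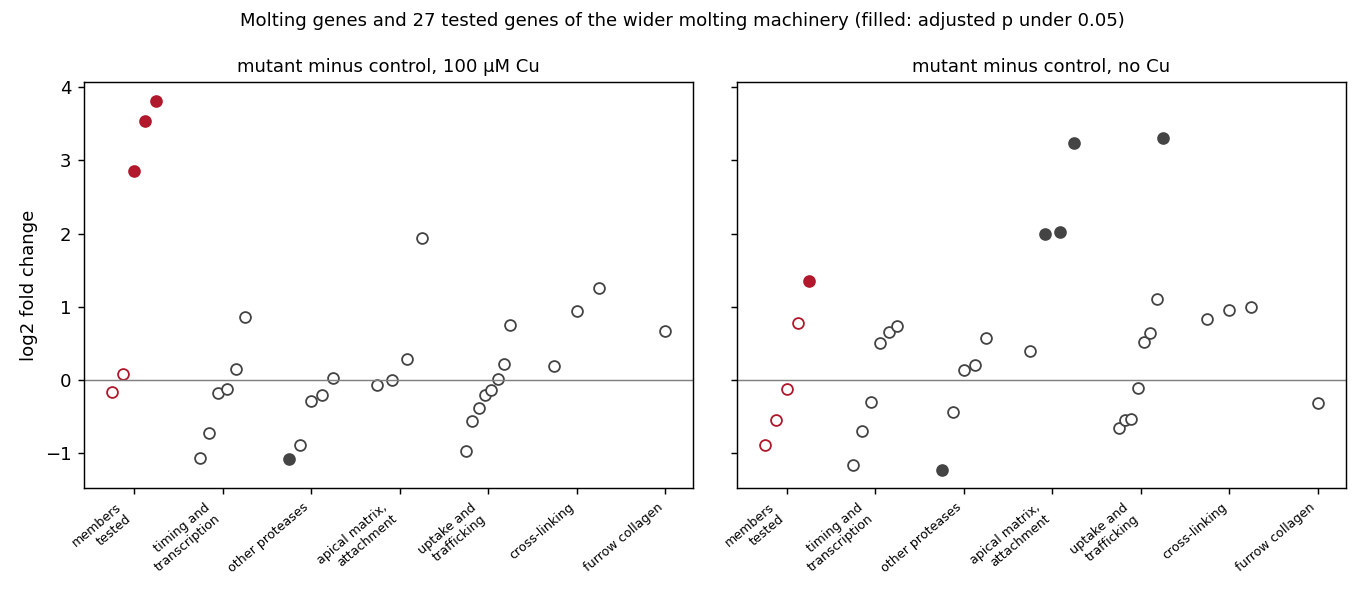
Log2 fold changes (vertical axis) of the 5 tested molting genes in red and of 27 tested genes of the wider molting machinery in grey, by gene list (horizontal axis), for mutant minus control with 100 µM copper on the left and without copper on the right; filled points have an adjusted p under 0.05, and the value of mlt-9 on the left is the log2 ratio of CPM. On copper 3 members and 1 other gene (cpz-1, lower) are called, and without copper nas-37, 4 higher genes and 1 lower one.

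The genes most like the members were sought among all other tested genes by Pearson's r with the mean of the standardised log2 CPM of the 5 tested members over 16 libraries. The highest r were those of F33D4.6 (0.91), E01G4.6 (0.86), tat-2 (0.84), C27A7.1 (0.84), best-24 (0.83), T15B7.1 (0.83), bli-1 (0.82), F36A4.2 (0.81), R04B5.5 (0.81) and ZK1307.3 (0.81). E01G4.6 averaged 17.1 CPM in the copper-treated mutant, 6.65 CPM in the untreated mutant, 0 in the copper-treated control and 4.73 CPM in the untreated control. The gene bli-1, which encodes a collagen of the adult cuticle, averaged 5.93 CPM in the copper-treated mutant, 6.27 CPM in the untreated mutant, 0.676 CPM in the copper-treated control and 1.53 CPM in the untreated control. Its log2 difference between the genotypes on copper was 3.13 ± 0.95 with all libraries and 3.79 without the long-depleted ones. The genes of this list were chosen by their likeness to the members over these same libraries, which favours such a difference. Tests of bli-1 for it are therefore no separate evidence, and their p-values are not given. Only F36A4.2 and R04B5.5, 2 of these 10, were also among the 10 highest when the long-depleted libraries were left out.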

How the data were processed

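Total RNA of whole worms was sequenced by a 3′ digital mRNA service (single reads, 100 cycles) in 16 libraries, per the labels' protocols. The authors deposited raw counts per gene without normalization. The build ce11 and the tools HTSeq, STAR 2.6.0a and bcl2fastq are listed in the submitters' processing notes; the annotation release and the strand setting are not given in the sources used here, so reads of overlapping genes are of uncertain assignment. Column headings tied the 16 columns to the samples, and 99.45% to 99.78% of each library's counts fell in tested genes. Positions and transcript lengths came from Ensembl's annotation of WBcel235.

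Tests used edgeR 4.0.16 (limma 3.58.1, R 4.3.3): filterByExpr, TMM factors, a mean for each of the 4 groups (12 residual degrees of freedom), robust quasi-likelihood test, adjusted p under 0.05 over 9787 genes. The ± stands for the SD over 4 libraries beside CPM and for the model's SE beside log2 fold changes. Members below the filter were compared as log2(CPM + 1) by exact two-sided permutation, with p adjusted over 16 tests. Ratios with a group of 3 counts or fewer have exact 95% counting intervals. The steps were tested on simulated data.

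Alternatives were DESeq2 1.42.0 and its size factors, no filter, a filter of CPM 5 in 4 libraries, the libraries of each comparison alone, a replicate block, offsets for transcript length (lowess span 0.3), a covariate for the balance of transcripts over 3000 bp and under 800 bp, a fit without the 5 long-depleted libraries (balance under -0.5), and leaving out each library. For the genes outside the members they were added after the data were seen. The members, the wider lists, these alternatives and the rules for naming genes (all members, up to 4 called genes with the smallest adjusted p per list and comparison, and the 10 genes most like the members) were chosen with earlier results of these data known. No replicates were duplicates: the lowest chi-square per degree of freedom between replicates was 2.66.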

Additional observations from a re-analysis of the deposited data

Results flagged for a closer look

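In 6 of the 36 sets of 4 libraries examined (9 genes in 4 groups), 1 library stood far above the other 3. In 4 of them the other 3 libraries were at 0, which fixes the outcome, so the usual chance rate of about 1 in 20 does not apply to them. These were mlt-9 in the copper-treated control (0.684 CPM in replicate 4, 0 in the others), mlt-11 in the copper-treated mutant (0.245 CPM in replicate 1, 0 in the others) and in the copper-treated control (0.338 CPM in replicate 3, 0 in the others), and bli-5 in the copper-treated control (1.07 CPM in replicate 1, 0 in the others). In each of these the group held 1 to 3 counts in all. The other two were both of the matrix gene noah-2. It stood out in untreated mutant replicate 3, at 3.12 CPM, where the other 3 libraries had 1.29 to 1.58 CPM. It also did so in untreated control replicate 2, at 7.48 CPM, where the other 3 had 1.12 to 1.84 CPM.

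The copper response of mlt-8 differed between the genotypes by 3.74 on the log2 scale (edgeR adjusted p = 0.0150), with 1.2 in the mutant and -2.55 in the control.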

How the results depend on the processing

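The number of tested members called on copper, 3 of 5 between mutant and control, was 2 of 5 with the replicate block and 1 of 2 when the libraries of the comparison alone were fitted, where only 2 members passed the filter. Between the untreated groups it was 1 in the reported fit and 0 with the balance covariate, with length offsets and without the 5 long-depleted libraries. For copper in the mutant it was 0, and 1 without the 5; for copper in the control it was 0, 1 with DESeq2 and 2 without the 5. For the interaction it was 1, and 2 with DESeq2, with the covariate, with length offsets and without the 5. Leaving out 1 library at a time gave 1 to 3 for mutant against control on copper, 0 to 1 without copper, 0 for copper in the mutant, 0 to 2 for copper in the control and 1 to 3 for the interaction.

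Values that changed sign were those of nas-37 on copper (0.26 with the covariate, 0.00027 with length offsets), qua-1 without copper (-0.29 with the covariate, -0.45 without the 5), mlt-9 without copper (0.0099 without the 5) and mlt-10 for copper in the mutant (0.16 with the covariate, 0.095 with length offsets, 0.11 without the 5). Of the wider lists, let-805 (-0.20) and vab-10 (-0.075) without copper and let-805 in the interaction (0.51) did so with length offsets. Leaving out 1 library gave, on copper, -0.30 to 0.78 for mlt-10, -0.43 to 0.066 for nas-37 and -0.105 to 0.079 for mlt-11. Without copper it gave -0.51 to 0.13 for mlt-9, -0.74 to 0.27 for noah-1, -0.48 to 0.19 for noah-2 and -0.29 to 0.14 for mlt-11. For copper in the mutant it gave -0.46 to 0.13 for mlt-10, -0.0053 to 0.41 for bli-5 and -0.22 to 0.087 for noah-2. The cause of these changes was not tested.

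Same-numbered libraries correlated at -0.60 to 0.55, and 5 of 24 correlated best with their own number, so no pairing by number was seen. A culture or batch shared by number was not tested. With the replicate block the calls among members were unchanged in number but for qua-1 on copper, whose adjusted p was 0.0523, and all genes called for copper in the control numbered 64, against 174.

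Over all genes, calls on copper numbered 678 in the reported fit, 1520 with the covariate and 2288 without the 5. With length offsets 524 were higher and 118 lower, against 625 and 53. Without copper they numbered 2141, 899 with the covariate and 1419 with the block. For copper in the mutant there were 219, and 432 with DESeq2, 472 with the comparison alone, 397 with the covariate and 1420 without the 5. For copper in the control there were 174, and 440, 13, 109 and 468 in the same order. For the interaction there were 527, 1031 with DESeq2, 262 with the covariate and 1191 without the 5. Leaving out 1 library gave 434 to 840 on copper (lowest without copper-treated control replicate 3), 735 to 3838 without copper (lowest without untreated mutant replicate 4, highest without untreated control replicate 2), 115 to 334 for copper in the mutant, 44 to 849 for copper in the control (lowest without copper-treated control replicate 4, highest without untreated control replicate 2) and 337 to 2140 for the interaction (the same libraries), so the shares of all genes called vary as widely. Depth limits most members: noah-1, noah-2, bli-5 and mlt-11 had at most 24 counts in any library.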

Other observations

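The adult cuticle collagen gene bli-2, which failed the filter on low counts and is named after its values were seen, was at 0 in all 4 copper-treated control libraries. It had 1.72 to 6.69 CPM in the copper-treated mutant, 0.772 to 2.94 CPM in the untreated mutant and 0 to 5.51 CPM in the untreated control. The abundant adult collagen gene col-19 averaged 3268 ± 840 CPM in the copper-treated mutant, 2520 ± 272 CPM in the untreated mutant, 2321 ± 640 CPM in the copper-treated control and 2795 ± 1061 CPM in the untreated control.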
